A study of Mus musculus with 13 samples.

Results

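The regions described here carried trimethylation of histone H3 at lysine 4 (H3K4me3) in 3 mouse leukaemia cell lines that express the NUP98-PHF23 fusion (NP23), and had no H3K4me3 peak in a leukaemia line driven by other oncogenes. Overlapping peaks of the 4 H3K4me3 lists were merged, and a region was kept when it held a peak of 748T, of 106A and of 961C and none of the SCL-LMO1 line. There were 352 such regions among 25059 merged regions (1.40%), and together they spanned 0.596 Mb. Among the 9815 regions with a peak in every NP23 line, those without an SCL-LMO1 peak made up 3.59% (95% exact Clopper-Pearson interval 3.23 to 3.97; intervals of this kind cover counting error only). With 1 NP23 line left out, 497 regions met the rule without 748T, 798 without 106A and 866 without 961C. Requiring fewer lines loosens the rule, so a higher count is largely built in. The regions were chosen by the presence and absence of listed H3K4me3 peaks, so these counts, and the widths, heights and distances that follow, are descriptions and were not tested.

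The tested lines were 748T and 106A, each grown from an NP23 pre-T LBL of a different C57BL/6 mouse, and 961C, a myeloblast line from an NP23 acute myeloid leukaemia (AML) of another C57BL/6 mouse. They were set against the SCL-LMO1 line, which the labels name as the control and which was derived from an SCL-LMO1 pre-T LBL of a C57BL/6 and C3H hybrid. All 4 lines grew without cytokines in the same serum-containing medium. Oncogene, mouse and strain differ together between the NP23 lines and the SCL-LMO1 line and cannot be told apart, and each line had 1 library per antibody, so no difference between lines was tested. Each line also had an H3K27me3 list, and 961C had a list for V5-tagged NP23. The H3K4me3 lists held 17544 peaks for 748T, 16324 for 106A, 17696 for 961C and 17616 for the SCL-LMO1 line. Read totals are not in the lists, so depth is unknown and heights were compared only within a list.

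H3K4me3 marks the promoters of active or poised genes. H3K27me3 is laid down by Polycomb repressive complex 2 on silenced developmental genes, and a promoter that carries both marks is called bivalent. The PHD finger of PHF23 binds H3K4me3, and NUP98 fusions of this type are known for keeping developmental regulator genes switched on in blood progenitors. The peaks are on mouse build mm9, and no annotation of that build was used. Regions are therefore given by mm9 coordinates, the genes in them and the lineage markers of the lines were not analysed here, and no sequence is printed.

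In the 3 lines that have them, the regions were of moderate width and height. The merged regions ranged from 169 to 29131 bp, with a median of 1370 bp and quartiles of 839.5 and 2097.5 bp. The H3K4me3 width inside a region had a median of 930 bp in 748T, 1067 bp in 106A and 872 bp in 961C, against 1197, 1368 and 1228 bp over all H3K4me3 regions of the same lines. The tallest point of the pileup had a median of 50.5 reads in 748T, 72 reads in 106A and 28 reads in 961C, against 85, 107 and 43 reads over all regions of those lines. Ranked within each line's own list of peaks, the median member stood at the percentile 40.0 in 748T, 40.3 in 106A and 41.5 in 961C. The 3 lines thus placed the set at nearly the same rank, somewhat below the middle of each list. Maximum heights spanned 8 to 145 reads in 748T, 7 to 168 in 106A and 7 to 103 in 961C.

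**Figure D1:**
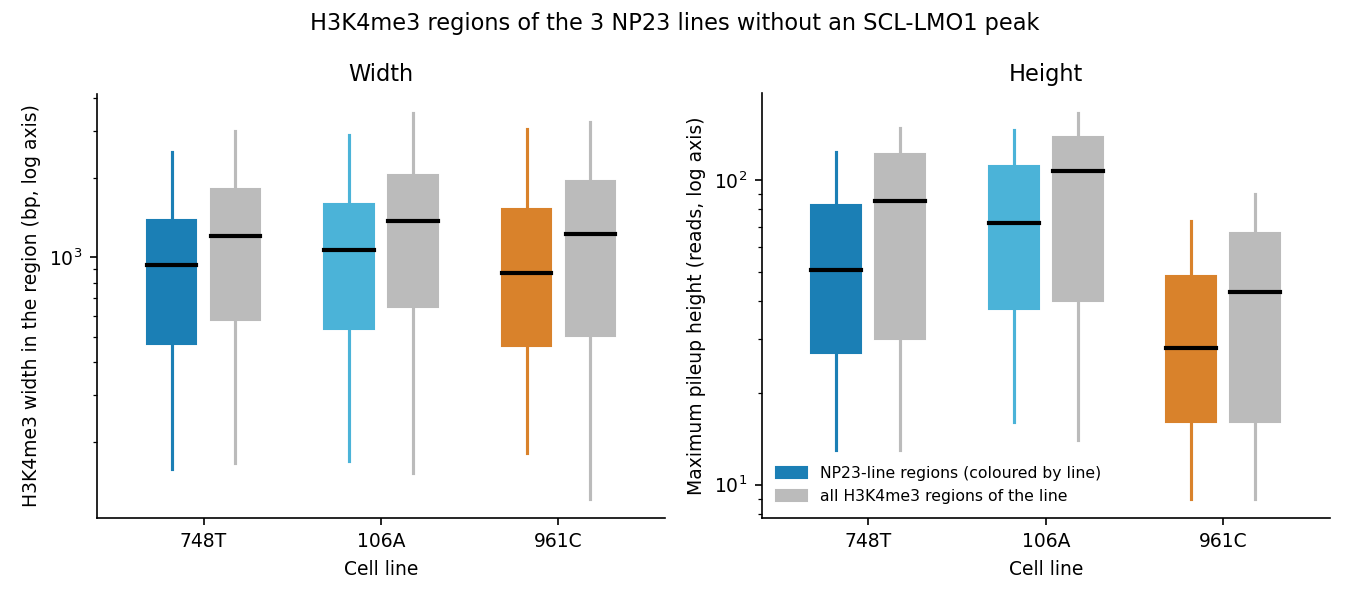
H3K4me3 width (left, bp) and maximum pileup height (right, reads) of 748T, 106A and 961C, on log axes, in the 352 regions without an SCL-LMO1 peak (coloured) and in all H3K4me3 regions of the same line (grey); boxes span the quartiles, black lines are medians and thin lines run from the 5th to the 95th percentile over regions. The coloured medians of height, 50.5, 72 and 28 reads, lie below the grey ones of 85, 107 and 43 reads, and the boxes overlap in every line.

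Few of the regions were tall in all 3 lines. Maximum height exceeded the list median in 748T, 106A and 961C together at 49 of the 352 regions (13.9%), against 67.0% of the 9815 regions that hold a peak of all 3, and it lay above the percentile 75 of every list at 9 regions (2.56%), against 25.1%. At the other end, 21 regions (5.97%) stood at or below the percentile 25 of every list. In the lists of the 3 lines that have them, the same held for more of the regions that another line lacks. The share was 24.2% for regions missing in 748T alone, 11.3% for 106A and 14.1% for 961C. It was not computed over the 9815 regions, so how the set compares with regions at large is not known here. Width under the peaks of the 3 NP23 lines, which leaves the SCL-LMO1 peak out, reached 2 kb at 96 regions (27.3%), against 47.6%. By the same width, the share without an SCL-LMO1 peak was 14.2% of NP23-line regions under 500 bp, 9.03% from 500 to 1000 bp, 3.65% from 1000 to 2000 bp, 1.98% from 2000 to 4000 bp and 2.55% at 4000 bp and above. When only the taller 50% of each NP23 list was used and the SCL-LMO1 list was left whole, 48 regions met the rule, and 229 did when all 4 lists were reduced to their taller 50%. Ranks below the middle were also found where another line was the one missing. With 106A as the missing line (520 regions), the median percentile was 32.2 in 748T and 36.5 in 961C. With 748T missing (157 regions), it was 22.6 in 106A and 23.9 in 961C, and with 961C missing (1433 regions) it was 32.6 in 748T and 29.7 in 106A.

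The extent of the mark differed between the 3 lines in many regions. In each of the 352 regions some bases were shared by peaks of all 3 lines, and the shared part had a median of 548.5 bp. It covered a median of 46.2% of the bases under their peaks, against 68.8% in the 9463 regions with peaks in all 4 lines. In 257 regions (73.0%) each line had a single peak. Line 106A had the widest H3K4me3 in 156 regions, 961C in 131 and 748T in 65. The widest line exceeded the narrowest by more than 2 times in 161 regions (45.7%) and by more than 5 times in 39. These counts were not made over other regions, and depth is unknown. Over all H3K4me3 regions of a line, median width was also largest in 106A (1368 bp), then 961C (1228 bp) and 748T (1197 bp). Across the 352 regions, Spearman correlations of width were 0.70 between 748T and 106A, 0.60 between 748T and 961C and 0.57 between 106A and 961C. Those of maximum height were 0.62, 0.47 and 0.42 for the same pairs. In the 9463 regions of all 4 lines the corresponding values were 0.87, 0.78 and 0.75 for width and 0.82, 0.73 and 0.68 for height. Regions are not independent replicates, and those of one line share its library.

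The widest region, chr6:52156421-52185551, also had the highest value when regions were ranked by the lowest of their 3 percentiles of height. H3K4me3 covered 23325 bp of it in 748T, 22746 bp in 106A and 29131 bp in 961C, with maximum heights of 140, 159 and 103 reads, and 4 NP23 peaks of 961C covered 98.2% of it. Lines 748T and 106A, both of T lineage, were thus close to each other in extent, and 961C filled the whole region. The next 2 regions by width differed in this respect. At chr6:51952513-51963659 H3K4me3 was 1634 bp wide in 748T and 1631 bp in 106A but 10922 bp in 961C, where 4 NP23 peaks covered 75.1% of the region, although heights were high in each line (129, 138 and 95 reads). At chr19:32828950-32837606 the mark was broad in every line, at 7683 bp in 748T, 6184 bp in 106A and 7582 bp in 961C, with 145, 153 and 90 reads, while NP23 covered only 1.2% of it.

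Among the other 7 of the 10 widest regions, 961C was the widest line at 4, 106A at 2 and 748T at 1. At chr7:29162228-29167705 H3K4me3 reached 5478 bp in 961C, 2990 bp in 748T and 1487 bp in 106A. At chr10:67738935-67744160 it was 5226 bp in 961C, 2769 bp in 748T and 3630 bp in 106A. Line 961C was widest as well at chr8:13673507-13678344 (4838 bp, against 2025 bp in 748T and 3137 bp in 106A) and at chr8:123259522-123263878 (4357 bp, against 937 and 509 bp). The reverse held at chr6:52186515-52191544, with 5030 bp in 748T, 2744 bp in 106A and 1646 bp in 961C. There the maximum was 120 reads in 748T, 118 in 106A and 16 in 961C, and 961C had 2 H3K27me3 peaks in the region. At chr1:166384039-166388983 the widths were 1846 bp in 748T, 4797 bp in 106A and 351 bp in 961C, and again 961C had 2 H3K27me3 peaks. At chrX:11653760-11658862 they were 3242, 5103 and 3725 bp.

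Among the first 10 regions by that lowest percentile, 3 were the broad ones on chromosomes 6 and 19 just described. The remaining 7 were 1184 to 3241 bp wide and lay at chr11:54911480-54912663, chr14:62174683-62176189, chr15:101054238-101056803, chr2:79474926-79476822, chr10:110181867-110184004, chr2:5633845-5636457 and chr19:57684089-57687329. In these 7, maximum heights were 120 to 135 reads in 748T, 141 to 168 in 106A and 63 to 74 in 961C. Such heights are above the percentile 75 of the 748T and 106A lists, with the last region at the percentile 72.5 of 961C. None of the 7 held an NP23 peak of 961C or an H3K27me3 peak of any line. The nearest SCL-LMO1 H3K4me3 peak was 14304 to 263903 bp away.

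NP23 was found at few of the regions. It overlapped 5 of the 352 regions (1.42%, 0.463 to 3.28), against 3.46% of all merged regions and 2.45% of those with peaks in all 4 lines, a value inside the interval. Where another line was the missing one it overlapped 0% of regions for 748T, 0.577% for 106A and 0% for 961C. In all, 9 of the 352 regions (2.56%) had an NP23 peak within 5 kb, against 4.50%. NP23 was mapped in 961C alone, so its presence in 748T and 106A was not measured. In chr6:52156421-52185551 the NP23 peaks were 925, 14520, 5518 and 8342 bp long with maxima of 9, 44, 36 and 38 reads. In chr6:51952513-51963659 they were 600, 6106, 1389 and 272 bp long with maxima of 11, 41, 25 and 14 reads. The other 3 regions each held a single lower peak. It was 550 bp long with a maximum of 14 reads at chr6:51473492-51475515, 101 bp with 10 reads at chr19:32828950-32837606, and 146 bp with 11 reads at chr11:5907549-5907760. Among these 5 regions the NP23 peaks were thus tallest in the first 2, both on chromosome 6, with up to 44 and 41 reads. The share of other H3K4me3 regions with NP23 peaks as tall was not counted.

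The regions were mostly far from any listed H3K4me3 peak of the SCL-LMO1 line. The nearest SCL-LMO1 peak was at a median of 29507 bp (quartiles 8985 and 81560 bp), and 65 regions were more than 100 kb from one. Measured to the taller 50% of the SCL-LMO1 list, the median was 55061 bp. With the whole SCL-LMO1 list, the nearest peak was within 1 kb of 30 regions (8.52%) and within 5 kb of 71 (20.2%). These distances were like those of regions that another line lacks. The median to the nearest peak of the missing line was 28320 bp for 748T, 24535 bp for 106A and 27441 bp for 961C, and 27.4%, 16.7% and 18.4% of those regions lay within 5 kb of one.

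**Figure D2:**
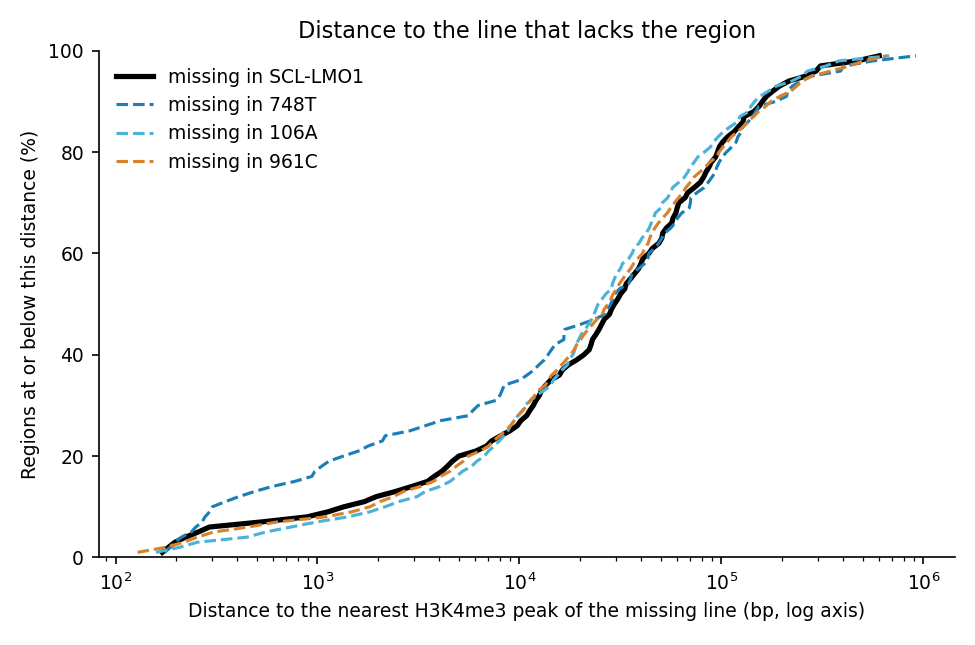
Share of regions (%) at or below a given distance (bp, log axis) from the nearest H3K4me3 peak of the line that lacks them: the 352 regions missing in the SCL-LMO1 line (solid black) and the regions missing in 748T, 106A or 961C alone (dashed). The solid curve runs close to those for 106A and 961C, with medians of 29507, 24535 and 27441 bp, and at 5 kb the curve for 748T is the highest, at 27.4% against 20.2% for the solid one.

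The 30 regions within 1 kb of an SCL-LMO1 peak were small and low. Their median merged width was 615.5 bp, against 1418 bp for the 322 farther ones, and their median percentile of height was 21.4 in 748T, 20.3 in 106A and 18.7 in 961C, against 41.5, 42.7 and 43.4. The SCL-LMO1 peak beside them had a median width of 1099 bp and a median height of 113 reads, at the percentile 70.9 of its own list. The regions just inside the rule were chr15:82818423-82819150, 38 bp from an SCL-LMO1 peak, chr11:97011460-97012793 at 115 bp and chr6:39761101-39761269 at 169 bp. Just outside it were regions in which SCL-LMO1 peaks covered least. At chr17:34325797-34332307 the SCL-LMO1 line covered 1.55% of the region, with 961C at 100% and 748T and 106A at 4.02% and 5.21%. At chr11:96132114-96184711 it covered 2.09% with a peak of 87 reads, at the percentile 54.3 of its list. Within their own lists 748T, 106A and 961C stood at 66.2, 37.4 and 95.2 (106, 64 and 89 reads). At chr1:183782288-183784096 it covered 6.74% with a peak of 14 reads, at the percentile 6.70. There 748T, 106A and 961C stood at 47.3, 36.4 and 58.6 (69, 61 and 49 reads). Farthest from a listed SCL-LMO1 H3K4me3 peak were chr12:115616913-115617651 at 950147 bp, chr14:53692274-53692508 at 728797 bp and chrX:96132353-96134714 at 677379 bp. The region on chromosome 14 was among the lowest, with maxima of 9 reads in 748T and 7 reads in 106A and 961C.

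Neighbouring regions of the set formed runs, counted as 2 or more with no SCL-LMO1 H3K4me3 peak between them. There were 30 runs, which took in 67 of the 352 regions (19.0%). The same count gave 16 of 157 regions (10.2%) with 748T as the missing line, 88 of 520 (16.9%) with 106A and 501 of 1433 (35.0%) with 961C. The median run spanned 18677.5 bp from its first to its last region, 14 runs spanned under 10 kb and 8 over 100 kb. Of the runs, 6 held 3 or more regions, and the longest held 4. With peaks up to 5 kb apart joined there were 11 runs with 23 regions, and 42 regions were in runs when any merged region outside the set ended a run.

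The longest run lay on chromosome 6 from 51952513 to 52191544. It was made up of chr6:51952513-51963659, chr6:52108117-52109840, chr6:52156421-52185551 and chr6:52186515-52191544, and sat in a 613-kb stretch without a listed SCL-LMO1 H3K4me3 peak. In that stretch 748T had 8 H3K4me3 peaks, 106A had 10 and 961C had 12, and the SCL-LMO1 line had 3 H3K27me3 peaks. The member at 52108117 was lower, with 61 reads in 748T, 85 in 106A and 12 in 961C. A further member, chr6:51473492-51475515, was separated from this run by SCL-LMO1 peaks.

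**Figure D3:**
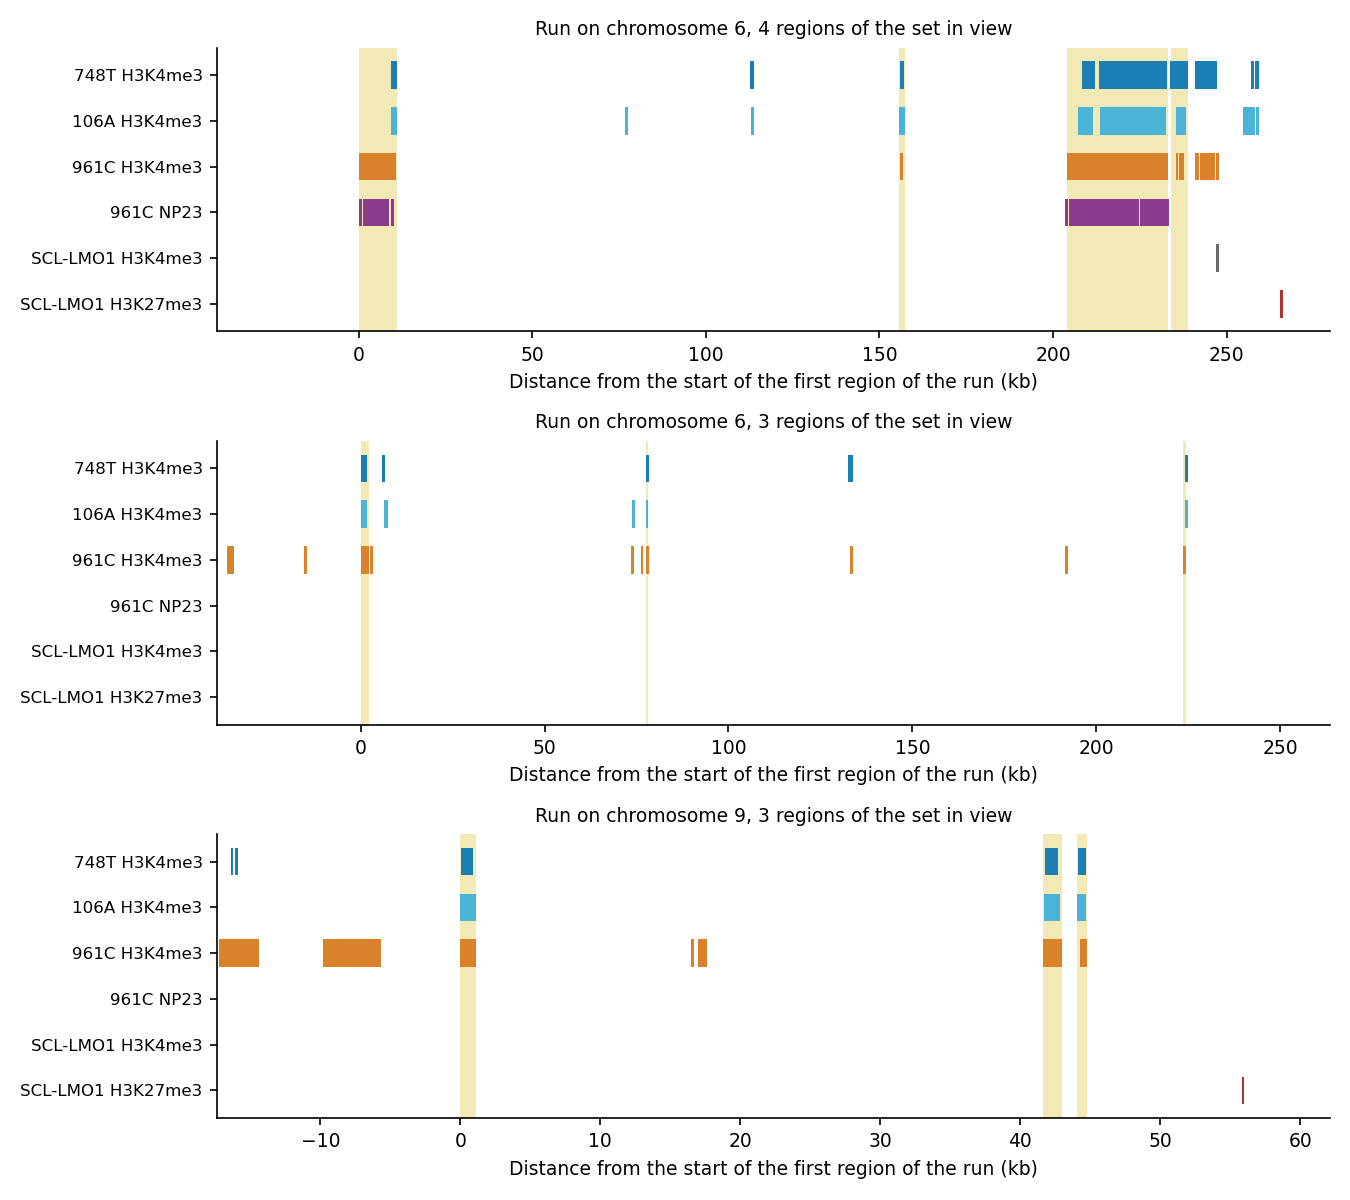
Peaks in the 3 longest runs, drawn as boxes at their distance (kb) from the start of the first region of the run, for H3K4me3 of 748T, 106A and 961C, NP23 of 961C, and H3K4me3 and H3K27me3 of the SCL-LMO1 line; yellow bands mark regions of the set, and boxes too narrow to see are widened. In the first run NP23 fills 2 of the 4 regions, and no SCL-LMO1 H3K4me3 falls in a yellow band.

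The other long runs held 3 regions each. A run on chromosome 6 held chr6:125299085-125301430, chr6:125376566-125377043 and chr6:125522709-125523551, in the widest stretch around any run, 1582 kb (125216348 to 126798117) without an SCL-LMO1 peak of H3K4me3 or H3K27me3. In it 748T and 106A had 6 H3K4me3 peaks each and 961C had 14. The first of these regions had 107 reads in 748T, 77 in 106A and 88 in 961C. These heights stood at the percentiles 66.9, 42.1 and 94.7 of the lists. The others had 12 and 25 reads in 748T, 26 and 20 in 106A, and 15 and 23 in 961C. On chromosome 9 the run of chr9:107198500-107199640, chr9:107240138-107241514 and chr9:107242588-107243246 lay in a stretch of 641 kb with 23 H3K27me3 peaks of the SCL-LMO1 line. On chromosome 11 chr11:69139321-69140310, chr11:69153608-69154977 and chr11:69179525-69183157 followed each other within 43.8 kb. The last of these was 3112 bp wide in 748T, 3083 bp in 106A and 2872 bp in 961C. On chromosome 8 chr8:96695880-96698062, chr8:96702530-96704816 and chr8:96706570-96708698 spanned 12.8 kb.

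A deletion of both copies in the SCL-LMO1 line would leave a stretch with neither mark. Of the 30 stretches that hold a run, 15 contained at least 1 H3K27me3 peak of the SCL-LMO1 line, and in 5 of these runs such a peak lay between the first and the last region. The longest run and the run of 3 regions on chromosome 9 had theirs outside that span. Of the 15 stretches with no such peak, 2 were longer than 500 kb, the stretch on chromosome 6 described above and one of 1369 kb on chromosome 10, around chr10:5151493 to 5714900. The other 13 stretches without a peak were no longer than 500 kb. The SCL-LMO1 H3K27me3 list has on average 1 peak per 542 kb, but its peaks are clustered, with 23 in the 641-kb stretch on chromosome 9. H3K27me3 peaks of 748T, 106A and 961C numbered 1, 0 and 1 in the stretch on chromosome 10. In the 1582-kb stretch they numbered 4, 2 and 14. The lists give a second height track beside that of the sample, which the files do not explain. It was taken over the 5 nearest SCL-LMO1 H3K4me3 peaks on each side of a run. Relative to the autosomal mean it had a median of 1.00 over the 30 runs and was 1.03 beside the 1582-kb stretch and 0.875 beside that on chromosome 10. The lowest value, 0.383, belonged to a run on chromosome X, where the whole chromosome gave 0.510. The lists hold no value between peaks, so whether DNA is lost inside a stretch was not tested.

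H3K27me3 of the NP23 lines was more frequent in and around the regions than over H3K4me3 regions at large, and that of the SCL-LMO1 line was so within 5 kb. It overlapped 44 of the 352 regions in 961C (12.5%, 9.23 to 16.4), against 4.72% of all merged regions. It overlapped 19 in 748T (5.40%, 3.28 to 8.30), against 1.01%, and 7 in 106A (1.99%, 0.803 to 4.05), against 0.427%. In the SCL-LMO1 line, which has no listed H3K4me3 peak there, it overlapped 2 regions (0.568%, 0.0689 to 2.04), against 0.104%, a value inside that interval. Within 5 kb the counts were 99 regions for 961C (28.1%), 67 for 748T (19.0%), 20 for 106A (5.68%) and, for SCL-LMO1, 18 (5.11%), against 11.0%, 6.80%, 2.26% and 1.23% of all merged regions. The H3K27me3 lists differ in length, at 19469 peaks for 961C, 8412 for 748T, 5600 for 106A and 4875 for the SCL-LMO1 line. With each reduced to its tallest 4875 peaks, the overlaps were 6.53%, 4.26%, 1.70% and 0.568% in that order of lines, against 2.61%, 0.722%, 0.395% and 0.104%. In the 9463 regions of all 4 lines H3K27me3 overlapped 1.68% for 961C, 0.486% for 748T, 0.137% for 106A and 0.0317% for SCL-LMO1. Regions that a different line lacks gave lower shares for the most part. H3K27me3 of 961C overlapped 11.5% of the regions missing in 961C, 3.08% of those missing in 106A and 1.91% of those missing in 748T. H3K27me3 of 748T overlapped 1.05%, 1.35% and 0.637% of the same sets.

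**Figure D4:**
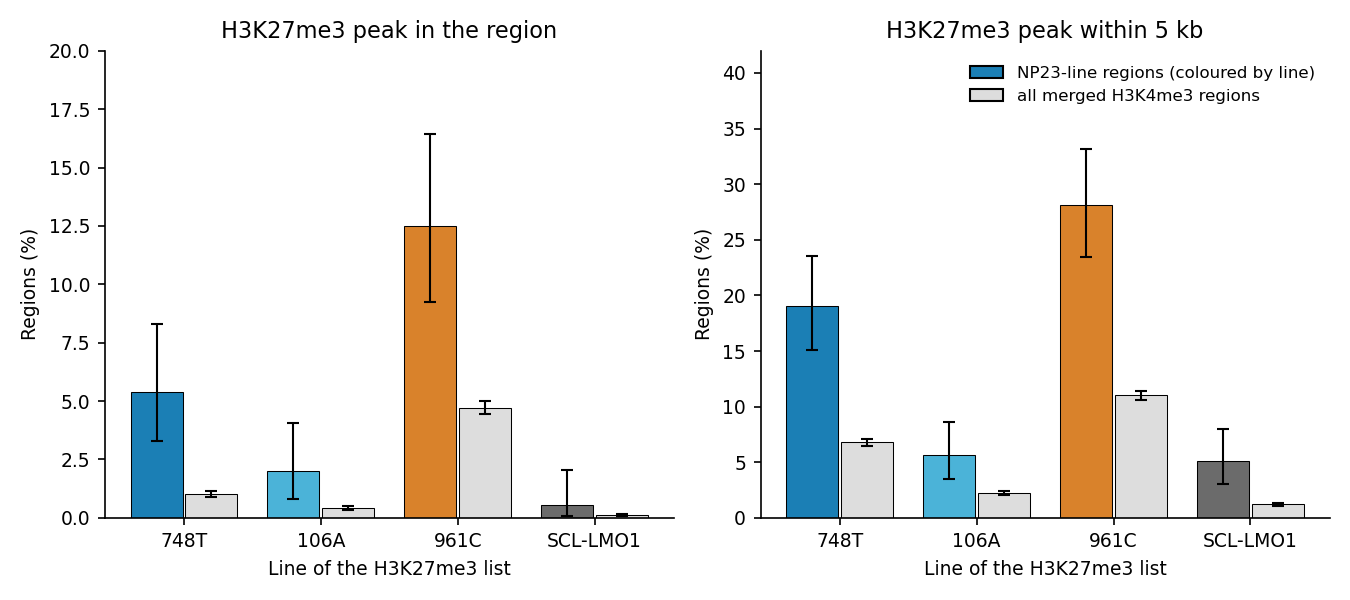
Share of regions (%) with an H3K27me3 peak in them (left) or within 5 kb (right), by the line of the H3K27me3 list, for the 352 regions (coloured) and all 25059 merged H3K4me3 regions (light grey); bars start at 0 and error bars are exact 95% intervals for counting error. The coloured bar is the taller of each pair, from 28.1% against 11.0% in 961C to 5.11% against 1.23% in the SCL-LMO1 line within 5 kb.

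Absence of a listed H3K4me3 peak in the SCL-LMO1 line was thus rarely matched by a listed H3K27me3 peak of that line. The 2 regions with one were chr2:31325211-31326823 and chr9:108940476-108942003. The H3K27me3 peaks were 99 and 96 bp long with maxima of 11 and 10 reads, at the percentiles 17.8 and 4.95 of that list. At the region on chromosome 2 H3K4me3 reached 37 reads in 748T, 80 in 106A and 51 in 961C, and at that on chromosome 9 it reached 84, 106 and 51 reads. Of the 18 regions with SCL-LMO1 H3K27me3 within 5 kb, 10 also had H3K27me3 of 961C within 5 kb, 9 had that of 748T and 7 that of 106A. The one with most SCL-LMO1 peaks nearby, 3 of them, was chr8:73253729-73254529, where maxima of H3K4me3 were 27 reads in 748T, 21 in 106A and 11 in 961C. Among all merged regions, 309 had SCL-LMO1 H3K27me3 within 5 kb. How many of those also had H3K27me3 of another line nearby was not counted.

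Within the NP23 lines, H3K27me3 of a line fell in regions where that line's own H3K4me3 was lower. Overlap was counted with the whole merged region, so whether the marks of a line shared bases was not tested. In 961C, H3K4me3 had a median of 16 reads and 553 bp at the 44 regions with its H3K27me3, against 30.5 reads and 979 bp at the other 308. Line 961C was the narrowest of the 3 at 41 of these 44 regions (93.2%), against 32.5% of the others. In 748T the median height was 33 reads at the 19 regions with its H3K27me3, against 52 reads at the other 333, with like widths of 953 and 929 bp. In 106A it was 32 reads at 7 regions, against 74 reads at 345. In all, 61 of the 352 regions overlapped H3K27me3 of at least 1 NP23 line, 37 of them in 961C alone, 8 in 2 or more lines and 1 in all 3. These were 17.3%, 10.5%, 2.27% and 0.284% of the set, against 5.48%, 4.15%, 0.603% and 0.0798% of all merged regions. The one shared by all 3, chr9:55174151-55175327, had H3K4me3 of 35 reads in 748T, 99 in 106A and 19 in 961C. At chr13:22096286-22099842 the pre-T lines had peaks of both marks within the merged region, and 961C had H3K4me3 alone. H3K27me3 peaks there numbered 3 in 748T, 2 in 106A and 0 in 961C, and H3K4me3 was 593, 533 and 3557 bp wide.

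The set was spread over all autosomes and chromosome X, with 1 region on an unplaced contig and 0 on chromosome Y, and was densest on chromosome 4. There, 47 of the 631 NP23-line regions (7.45%, 5.52 to 9.78) lacked an SCL-LMO1 peak, against 305 of 9184 elsewhere (3.32%, 2.96 to 3.71). Chromosome 6 followed with 23 of 445 (5.17%, 3.30 to 7.65), and chromosomes 16 and X were lowest with 6 regions each (1.96% and 1.97%). With another line missing, chromosome 4 lay near that line's overall share, at 1.68% for 748T, 5.19% for 106A and 10.8% for 961C, against 1.63%, 5.21% and 13.2% over all chromosomes. Chromosome 4 was singled out after its value was seen, and without it 305 regions remain.

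**Figure D5:**
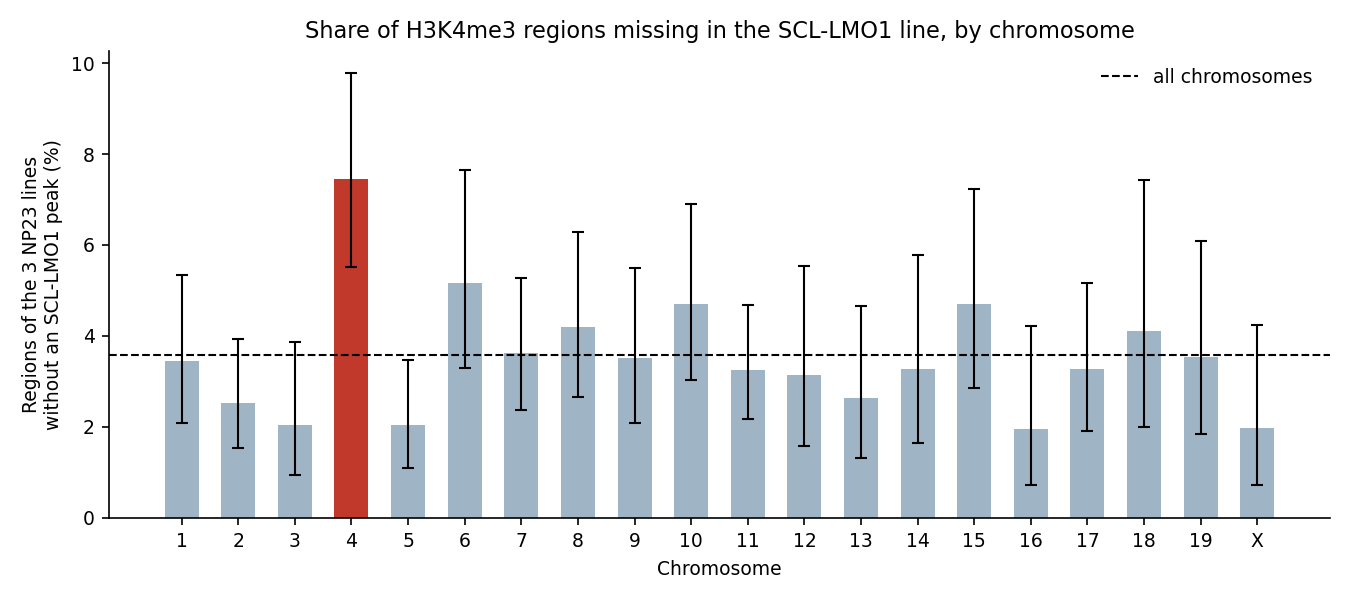
Share (%) of H3K4me3 regions present in 748T, 106A and 961C that lack an SCL-LMO1 peak, by chromosome; error bars are exact 95% intervals for counting error, the dashed line is the share over all chromosomes (3.59%) and chromosome 4 is in red. Chromosome 4 stands at 7.45%, and the other chromosomes range from 1.96% to 5.17%.

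On chromosome 4 many of the regions lay in 1 window, again picked after its value was seen. From 130000001 to 135000000, 15 of 81 NP23-line regions (18.5%, 10.8 to 28.7) lacked an SCL-LMO1 peak, the highest count in a 5-Mb window. The next count, 6, was reached by several windows, on chromosomes 6, 7, 8, 11 and 14. Their shares were 7.5% to 11.3%, apart from 6 of 19 regions (31.6%, 12.6 to 56.6) from 50000001 to 55000000 on chromosome 6, around the longest run. The rest of chromosome 4 gave 32 of 550 (5.82%). In the window on chromosome 4, 0 regions were missing in 748T alone, 8 in 106A alone and 6 in 961C alone. Shares for these lines were not computed there. Whether the window stands out for the SCL-LMO1 line alone was therefore not tested. The 15 regions did not form 1 empty stretch. The SCL-LMO1 line had 114 H3K4me3 and 20 H3K27me3 peaks in the window, and its nearest H3K4me3 peak lay 2175 to 83843 bp from a member, with a median of 24773 bp. Its second height track averaged 1.19 reads over the peaks of the window, against 1.107 reads over all autosomal peaks. The 15 members had a median width of 1074 bp and maxima of 16 to 99 reads in 748T, 11 to 135 in 106A and 7 to 73 in 961C.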

How the data were processed

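Each of the 9 lists used holds the peaks of 1 library, 109165 peaks in all, as deposited by the authors, and the 4 inputs had no list used here. CASAVA 1.9, BWA 0.5.9-r26 and build mm9 are named in the submitters' processing notes. For the peak caller, its threshold and the read totals, nothing was stated in the labels or files. The deposited values are peak starts and ends and, in a text field, the mean and maximum pileup height of the sample and of a second track, which is unexplained and was empty for 5 peaks. These other values are unscaled reads as far as the files show, so heights were ranked only within a list.

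Coordinates are 1-based. Peaks of the 4 H3K4me3 lists sharing at least 1 bp were merged, and overlap with H3K27me3 or NP23 needed 1 bp or a gap of at most 5 kb. Python 3.11.15, pandas 2.3.3, numpy 2.4.6 and scipy 1.17.1 were used, and the merging and overlap steps were tested on simulated peaks. With 1 library per line and mark and 1 control line, no test between lines was run. The regions and lists were chosen with earlier results of these data known. Regions named are the 10 widest, the 10 with the highest lowest-of-3 percentile, all with NP23 or SCL-LMO1 H3K27me3, those of the 5 longest runs, and those nearest to, farthest from and just outside the rule. The regions chr8:73253729-73254529, chr9:55174151-55175327 and chr13:22096286-22099842, and chromosome 4 with its window, were named after their values were seen. Alternatives covered the merging, height limits, lines left out, run definition and overlap distance.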

Additional observations from a re-analysis of the deposited data

How the results depend on the processing

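A count was called close when within a factor of 1.5 of the reported one. A median or share was called close when inside the 95% interval of the reported one. Over 18 results and 81 alternatives, 52 values stayed close by these limits, among them the counts of 497 and 305 regions below, and 29 moved. The cause was not tested. The number of regions, 352, was 229 with the taller 50% of every H3K4me3 list, 48 with the taller 50% of the NP23 lists and all SCL-LMO1 peaks, 590 when bases shared by all 3 NP23 lines had to lack an SCL-LMO1 peak, and 497 to 866 with 1 NP23 line left out (497 without 748T, 798 without 106A, 866 without 961C). Leaving out 961C, leaving out chromosome 4 (305 regions) and a minimum of 10 reads were chosen after seeing the data. With each peak taken on its own, median width was 834 bp in 748T, 899 bp in 106A and 680.5 bp in 961C, and in 961C the median height was 24 reads at the percentile 37.7. The 30 runs became 6 with 3 regions required, 11 with peaks up to 5 kb apart joined, 8 with 748T as the missing line and 203 with 961C, and the 67 regions in runs became 19, 23, 16 and 501, or 42 when any outside region ended a run. The median distance was 55061 bp to the taller 50% of SCL-LMO1 peaks. The share with H3K27me3 of 748T was 11.1% within 1 kb and 19.0% within 5 kb, that of 106A 5.68% within 5 kb, and that of 961C 19.9% within 1 kb, 28.1% within 5 kb, 8.52% with taller peaks and 6.53% with lists of equal length. For the SCL-LMO1 line it was 5.11% within 5 kb and 0% with taller peaks. No paired analysis was possible because each line had 1 library per mark and no result here comes from a test. Unknown depth limits every absence of a peak: a list holds only what passed the caller, so low signal and no signal cannot be told apart.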
